A study of Homo sapiens with 30 samples.

Results

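10 genes of the smooth muscle contractile programme were followed across 30 libraries of LX2 cells: ACTA2, TAGLN, CALD1, MYL9, CNN1, TPM1, TPM2, MYLK, ACTN1 and SRF. They were taken by name from a deposited table of 61597 genes. All 10 symbols matched 1 row each, and all 10 passed the minimum level for testing. DHA, an omega-3 fatty acid, lowered 8 of the 10 genes on average, where 8.38% of all 15137 genes tested were called lower. Oleic acid and betacellulin each changed none of the 10 past the threshold, where 0% of all genes tested were called.

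Activated stellate cells are the myofibroblasts of the injured liver, and their contraction uses the machinery of smooth muscle. In that machinery, filaments of smooth muscle actin are pulled by non-muscle and smooth muscle myosin, myosin light chain kinase phosphorylates the regulatory light chain to start the pull, and calponin, caldesmon and tropomyosin lie along the actin filament and tune it. Serum response factor (SRF) is the transcription factor that binds CArG boxes in the promoters of many of these genes, together with cofactors of the myocardin family. Smooth muscle actin is the usual marker of stellate activation.

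LX2 is an established human line of activated hepatic stellate cells, so every library came from 1 line. Cells were given vehicle, oleic acid (OLA, 18 carbons with 1 double bond) or docosahexaenoic acid (DHA, 22 carbons with 6 double bonds) and then betacellulin (BTC, a ligand of ErbB receptors) or its vehicle. Both fatty acids were used at 50 µM on 20 µM albumin, and BTC was used at 20 ng/ml for 72 h in medium with 1% serum. The labels give fatty acid times of 2 cycles of 48 h, of 96 h and, for single libraries, of 72 h, and it is not clear which of these are separate steps or whether the fatty acid stayed on during BTC. They do not say whether the fatty acid vehicle held albumin, so against vehicle the fatty acid and its carrier cannot be told apart. The 6 groups were Veh+Veh (neither agent), Veh+BTC (BTC alone), OLA+Veh (oleic acid alone), OLA+BTC (oleic acid then BTC), DHA+Veh (DHA alone) and DHA+BTC (DHA then BTC). Each group had 5 libraries, 1 from each of 5 experiments, and the number after a group name is the experiment. Libraries were made from the 3′ ends of transcripts, so CPM (reads per 1000000 reads of a library) counts transcripts with no weight for their length, and the isoforms of a gene are pooled.

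Libraries held 1245182 to 9490142 reads. DHA libraries were the shallower ones, with a median of 3268410 reads against 3921124 after vehicle and 4203956 after oleic acid, and the shallowest 3 were both DHA libraries of experiment 5 and DHA+BTC 4. The lowest value of any of the 10 genes was 18 reads, ACTA2 in DHA+BTC 5, so none was near the limit of 3 reads that a count of 0 allows. PDGFRB, COL1A1, COL1A2, VIM and THY1, markers of stellate cells and fibroblasts, were present in all 30 libraries. Of the same list, PDGFRA had a median of 4.00 CPM, DCN of 0.876 CPM, and LRAT and DES of 0. Of 8 hepatocyte and epithelial markers 3 had a median above 1 CPM, KRT18 (133 CPM), KRT8 (72.6 CPM) and CDH1 (16.2 CPM), while ALB, TTR, APOA1 and EPCAM had a median of 0. Of 6 vascular smooth muscle markers 3 had a median above 1 CPM, CSPG4 (79.7 CPM), NOTCH3 (11.3 CPM) and LMOD1 (1.42 CPM), while MYH11 and DES had a median of 0. The smooth muscle markers summed to 72.6 to 167 CPM after vehicle, 84.6 to 146 CPM after oleic acid and 47.4 to 175 CPM after DHA. No marker of skeletal and cardiac muscle reached a median of 1 CPM, and MYOD1 and MYOG had a median of 0. Of 5 leukocyte markers 3 had a median above 1 CPM, CD14 (11.6 CPM), CD68 (8.29 CPM) and PTPRC (1.33 CPM). Of 5 endothelial markers 1 did, PECAM1 (3.60 CPM). The 9 stellate and fibroblast markers summed to 908 to 2554 CPM after vehicle, 711 to 2750 CPM after oleic acid and 459 to 2173 CPM after DHA. Whether the spread of these sums has a part in the results was not tested. The labels do not say whether counting used strand. Reads of a gene and of its antisense partner then cannot be told apart. ACTA2-AS1, MYLK-AS2 and TPM1-AS were at 0 in all 30 libraries and MYLK-AS1 reached 4.95 CPM. FAS, which lies beside ACTA2, was above 0 in all 30 libraries, with a median of 2.04 CPM and a maximum of 9.64 CPM. In bulk RNA, fewer cells of a type and less RNA per cell cannot be told apart.

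The start regions of 3 members are shown because they carry sequences of the CArG form, the element bound by SRF. RefSeq promoters on GRCh38.p14 covered 8 of the 10 genes with 17 windows, and each window below is the 250 bases before an annotated start, read 5′ to 3′ on the gene's strand. TAGLN and MYL9 were not matched. The search took CC, 6 bases of A or T and GG on both strands, either exactly or with 1 departure inside the 6-base core, and capitals mark the matches.
ACTA2, chr10:88952774-88953023, minus strand: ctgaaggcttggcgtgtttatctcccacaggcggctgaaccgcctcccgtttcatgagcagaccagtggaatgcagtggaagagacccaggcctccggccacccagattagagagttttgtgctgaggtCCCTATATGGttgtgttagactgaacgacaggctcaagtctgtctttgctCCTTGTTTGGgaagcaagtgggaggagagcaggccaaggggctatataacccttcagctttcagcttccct
MYLK, chr3:123620549-123620798, minus strand: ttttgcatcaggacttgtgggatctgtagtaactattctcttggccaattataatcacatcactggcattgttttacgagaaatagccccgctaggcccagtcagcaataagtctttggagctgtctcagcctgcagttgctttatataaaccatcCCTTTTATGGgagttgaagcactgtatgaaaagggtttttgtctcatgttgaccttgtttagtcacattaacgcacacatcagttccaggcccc
SRF, chr6:43171019-43171268, plus strand: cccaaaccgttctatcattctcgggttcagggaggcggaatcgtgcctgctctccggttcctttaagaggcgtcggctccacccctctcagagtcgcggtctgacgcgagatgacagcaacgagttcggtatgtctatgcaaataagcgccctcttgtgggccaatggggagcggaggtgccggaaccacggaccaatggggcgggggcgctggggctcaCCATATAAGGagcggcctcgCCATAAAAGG
The ACTA2 window held CCCTATATGG, beginning 121 bases before the start, and CCTTGTTTGG, beginning 71 bases before it, each with 1 core departure. The MYLK window held the exact form CCTTTTATGG at 94 bases before its annotated start. Whether transcripts from that start encode the whole kinase was not examined. SRF, itself a target of the protein it encodes, held 2 exact forms, CCATATAAGG at 30 bases and CCATAAAAGG at 10 bases before the start. An exact match lay in 1.16% of 35116 promoter windows of this length, and 2 or more matches of either form lay in 0.587%. ACTN1 held 1 exact match in 1 of its windows and CALD1 held 1 match with a departure, while the windows of CNN1, TPM1 and TPM2 held neither form. These are matches of letters, not measured binding, and the expression data do not say which start was used.

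Levels spanned a wide range between the 10 genes. ACTN1, which encodes the crosslinker alpha-actinin, was highest at 1526 ± 262 CPM (SD over 30 libraries), followed by MYL9 at 870.3 ± 585 CPM and MYLK at 578 ± 339 CPM. SRF averaged 389 ± 164 CPM, TAGLN 365 ± 432 CPM, TPM1 296 ± 131 CPM and CALD1 220 ± 175 CPM (n = 30 each). TPM2 averaged 133 ± 63.4 CPM, and CNN1 and ACTA2 were lowest at 59.9 ± 32.6 and 59.7 ± 42.3 CPM (n = 30 each). Neighbours in this order overlapped in their ranges. The marker ACTA2 was the least abundant of the 10 on average, beside CNN1.

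**Figure D1:**
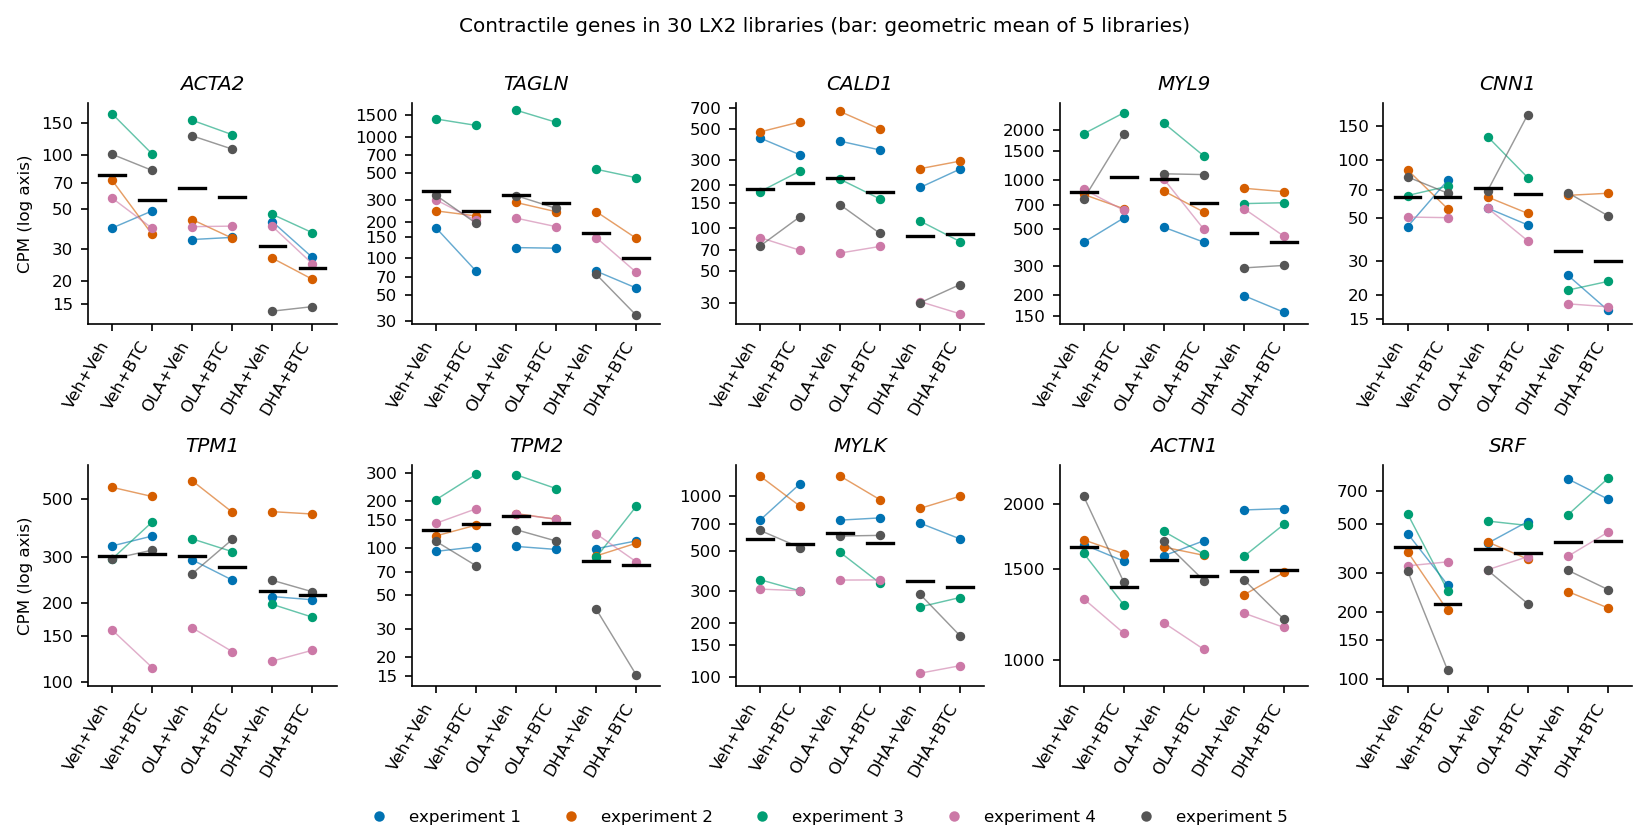
CPM of each of the 10 genes (log axis) in the 6 groups, with 1 point per library coloured by experiment, thin lines joining libraries of the same experiment without and with BTC, and a bar at the geometric mean of 5 libraries. The bars of the DHA groups are the lowest 2 of the 6 for 8 genes, and the points keep their order by experiment in many panels, with TAGLN in experiment 3 far above the others.

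DHA lowered most of the contractile genes. SRF was higher on average, with a difference of 0.07 without BTC and 0.92 with BTC. Averaged over BTC, 9 of 10 genes passed an adjusted p of 0.05 against vehicle, 8 lower and 1 (SRF) higher. Of all 15137 genes tested, 10.7% were called, 8.38% lower and 2.33% higher. The median difference of the 10 genes was -0.88 on the log2(CPM + 1) scale, beside -0.13 for all genes tested. ACTN1 was the 1 gene not called. With TMM scaling of the libraries, 8 of the 10 were called, and the calls over all genes split into 529 higher and 757 lower in place of 352 and 1269. With edgeR and with DESeq2, which scale libraries in similar ways, the median of all genes was -0.04 and -0.03.

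The falls ranged from 2.39-fold for ACTA2 to 1.39-fold for TPM1. Removing the shift of the median of all genes left ACTA2 at -1.12, TAGLN at -1.08, MYL9 at -0.93 and TPM1 at -0.34. All p-values for single genes come from limma with the experiment as a term and Benjamini-Hochberg adjustment over all genes, and n is 10 libraries a side from 5 experiments. Without the experiment term (no replicate block), 0 of 10 genes were called by limma, with 6 at an unadjusted p under 0.05 and adjusted p-values from 0.069 for ACTA2 to 0.98 for ACTN1. The 2 libraries of an experiment on a side entered as separate values. When each experiment was reduced to 1 mean per fatty acid, 6 genes remained called: ACTA2, TAGLN, CALD1, MYL9, CNN1 and MYLK.

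ACTA2 encodes alpha smooth muscle actin. After vehicle it ran from 36.3 to 169 CPM with a median of 65.1 CPM (n = 10), and after DHA from 13.6 to 46.9 CPM with a median of 26.9 CPM (n = 10). The ranges overlapped, with 6 of the 10 DHA libraries below every vehicle library. Within experiments, 9 of 10 pairs of libraries were lower with DHA. ACTA2 fell by 1.25 ± 0.23 (SE) on the log2 scale, adjusted p = 0.000608. The size differed between experiments, from -0.36 in experiment 1 to -2.61 in experiment 5, and the DHA libraries of experiment 5 were 2 of the 3 shallowest.

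TAGLN encodes transgelin, an actin-binding protein of smooth muscle. Its vehicle libraries ran from 78.1 to 1399 CPM with a median of 233.5 CPM (n = 10), and its DHA libraries from 33.7 to 539 CPM with a median of 112 CPM (n = 10). Those ranges overlapped widely, and experiment 3 was far above the other experiments. Within experiments all 10 pairs were lower with DHA. TAGLN fell by 1.21 ± 0.18 (SE), adjusted p = 4.56e-05, with single experiments between -0.32 (experiment 2) and -2.32 (experiment 5).

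CALD1 encodes caldesmon, which binds actin and myosin. After vehicle it ran from 69.98 to 559 CPM with a median of 216 CPM, and after DHA from 25.0 to 297 CPM with a median of 96.4 CPM (n = 10 each). The groups overlapped across experiments and not within them: in all 5 experiments both DHA libraries lay below the other 4 libraries, and CALD1 was the 1 member with that pattern in every experiment. CALD1 fell by 1.13 ± 0.13 (SE), adjusted p = 1.63e-06. It had the smallest spread of sizes among the 4 genes with the largest falls, from -0.74 to -1.46.

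CNN1 encodes calponin 1, an actin-binding inhibitor of the myosin ATPase. Vehicle libraries ran from 45.1 to 88.7 CPM with a median of 66.3 CPM, and DHA libraries from 16.7 to 67.6 CPM with a median of 24.4 CPM (n = 10 each). 6 DHA libraries, those of experiments 1, 3 and 4, lay below every vehicle library, at 16.7 to 25.3 CPM. The 4 DHA libraries of experiments 2 and 5 ran from 51.4 to 67.6 CPM, within the vehicle range. CNN1 fell by 0.99 ± 0.22 (SE), adjusted p = 0.00292, with -1.59 in experiment 3 and -0.09 in experiment 2.

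The tropomyosins TPM1 and TPM2 encode coiled-coil proteins that run along the actin filament. TPM1 ran from 113 to 554 CPM with a median of 325 CPM after vehicle, and from 120 to 447 CPM with a median of 209 CPM after DHA (n = 10 each). No DHA library of TPM1 lay below every vehicle library, although 9 of 10 pairs were lower, and TPM1 fell by 0.47 ± 0.11 (SE), adjusted p = 0.0065. Under TMM scaling its adjusted p was 0.0834, under edgeR 0.1 and under DESeq2 0.068. These 3 settings were among the 7 of 49 alternatives in which the call on TPM1 was lost.
TPM2 ran from 76.6 to 295 CPM with a median of 129 CPM after vehicle, and from 15.3 to 184 CPM with a median of 93.5 CPM after DHA. Its lowest value, 15.3 CPM, was in the shallowest library, DHA+BTC 5. TPM2 fell by 0.75 ± 0.20 (SE), adjusted p = 0.0158, in 4 of 5 experiments, with 0.09 in experiment 1. Without the 3 shallowest libraries the difference was -0.36 and the adjusted p 0.234. The call on TPM2 was lost in 7 of 49 alternatives. Among them were edgeR (adjusted p = 0.098) and limma without experiment 3, 4 or 5 (adjusted p = 0.0729, 0.0692 and 0.0728).

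MYL9 encodes the regulatory myosin light chain and MYLK the kinase that phosphorylates it. MYL9 ran from 418 to 2550 CPM with a median of 791 CPM after vehicle, and from 157 to 889 CPM with a median of 562 CPM after DHA (n = 10 each). In experiment 2 the DHA libraries of MYL9 were at 889 and 848 CPM, above the vehicle libraries at 815 and 668 CPM, and in the other 4 experiments every pair was lower. MYL9 fell by 1.07 ± 0.21 (SE), adjusted p = 0.000992.
MYLK ran from 300.2 to 1295 CPM with a median of 585 CPM after vehicle, and from 105 to 1001 CPM with a median of 282 CPM after DHA. 6 DHA libraries of MYLK lay below every vehicle library, and 9 of 10 pairs were lower. MYLK fell by 0.78 ± 0.17 (SE), adjusted p = 0.00228, and without the 3 shallowest libraries the adjusted p was 0.0723.

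ACTN1 encodes alpha-actinin 1, which links actin filaments at adhesions and stress fibres. It ran from 1128 to 2071 CPM with a median of 1579 CPM after vehicle, and from 1157 to 1961 CPM with a median of 1454 CPM after DHA (n = 10 each). The 2 groups covered nearly the same range. The difference was -0.02 with a 95% interval from -0.24 to 0.19, adjusted p = 0.917, and its sign turned under median-of-ratios (0.10) and TMM (0.09) scaling. That interval lies above the fall measured for each of the 8 lower genes.

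SRF went the other way. It ran from 110 to 553 CPM with a median of 315 CPM after vehicle, and from 209 to 798 CPM with a median of 407 CPM after DHA (n = 10 each), and 3 DHA libraries lay above every vehicle library. SRF was higher in 8 of 10 pairs and in 4 of 5 experiments, with experiment 2 at -0.28. Averaged over BTC it rose by 0.50 ± 0.16 (SE), adjusted p = 0.0359. The difference was 0.07 without BTC (interval -0.38 to 0.52) and 0.92 with BTC (interval 0.47 to 1.37). With BTC, oleic acid against vehicle gave 0.75 for SRF (limma, adjusted p = 0.695). DHA against oleic acid with BTC gave 0.18 (interval -0.27 to 0.63, adjusted p = 0.734). Both differences from vehicle with BTC use the same Veh+BTC libraries, where SRF averaged 233 CPM. A rise particular to DHA was therefore not shown. The call on SRF for DHA against vehicle averaged over BTC is close to the threshold. It was lost in 20 of 49 alternatives, with adjusted p-values from 0.00299 to 0.507, and 11 of those 20 left out a single library.

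**Figure D2:**
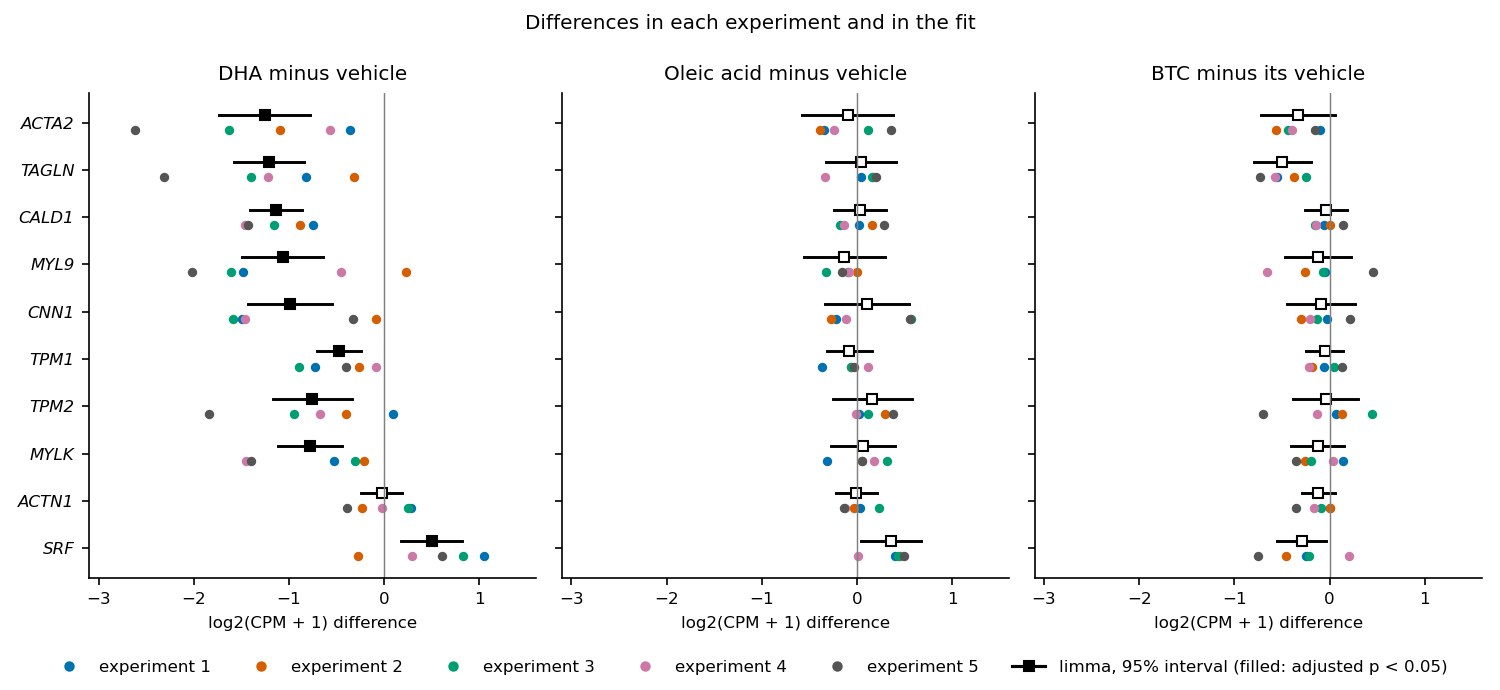
Differences on the log2(CPM + 1) scale for DHA minus vehicle, oleic acid minus vehicle and BTC minus its vehicle, with coloured points for the 5 experiments and black squares with 95% intervals for the limma fit (filled where adjusted p was under 0.05). In the DHA panel 8 filled squares lie below 0 and SRF above it, while no square is filled in the other panels.

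Oleic acid changed none of these genes past the threshold. Averaged over BTC, 0 of 10 genes were called by limma, and 0% of all 15137 genes were called, with 302 genes at an unadjusted p under 0.05. EdgeR and DESeq2 also called 0 genes. Of the 10 genes, SRF was the 1 with an unadjusted p under 0.05, with a difference of 0.36 (95% interval 0.04 to 0.68, adjusted p = 1 from limma). For ACTA2 the difference was -0.10 with an interval from -0.58 to 0.38, and for CALD1 it was 0.03 with an interval from -0.24 to 0.30. ACTA2 with oleic acid ran from 34.0 to 156 CPM with a median of 42.1 CPM (n = 10), a range close to that after vehicle. The interval of CALD1 leaves out a change of the size measured with DHA, as does that of ACTA2.

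Set against oleic acid rather than vehicle, DHA lowered the same 8 genes: 8 of 10 were called, all lower, where 11.4% of all genes were called and 8.96% were called lower. The DHA libraries are the same in both comparisons. TAGLN was lowest relative to oleic acid at -1.26 ± 0.18 (SE, adjusted p = 2.85e-05), followed by CALD1 at -1.16 ± 0.13 (adjusted p = 1.08e-06) and ACTA2 at -1.16 ± 0.23 (adjusted p = 0.00155). CNN1 fell by 1.09, MYL9 by 0.93, TPM2 by 0.92, MYLK by 0.84 and TPM1 by 0.39, with adjusted p-values from 0.00119 for MYLK to 0.0232 for TPM1. Between experiments ACTA2 ran from -0.02 (experiment 1) to -2.98 (experiment 5). MYL9, CNN1 and TPM2 were each above 0 in 1 experiment. The call on TPM1 was lost in 11 of 49 alternatives, and those on MYL9 and TPM2 were lost without the 3 shallowest libraries. The difference of SRF was 0.14 with an interval from -0.18 to 0.46, adjusted p = 0.607. ACTN1 differed by -0.02 with an interval from -0.23 to 0.20, and its sign turned under median-of-ratios and TMM scaling. Without the experiment term 0 of the 10 were called by limma, with 7 at an unadjusted p under 0.05.

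Taken without BTC, DHA+Veh against Veh+Veh, the calls were ACTA2 at -1.29, TAGLN at -1.15 and CALD1 at -1.09, 3 of 10 genes and all lower, where 1.54% of all genes were called and 0.945% were lower. ACTA2 read 39.4, 72.5, 169, 57.7 and 101 CPM in Veh+Veh 1 to 5. It read 42.7, 26.8, 46.9, 40.2 and 13.6 CPM in DHA+Veh 1 to 5. The 2 groups overlapped, and ACTA2 was lower with DHA in 4 of 5 experiments. With BTC on both sides, 6 of 10 were called, where 3.55% of all genes were called, 2.46% lower and 1.08% higher. The 5 lower genes were ACTA2 at -1.22, TAGLN at -1.28, CALD1 at -1.18, MYL9 at -1.31 and CNN1 at -1.07, and SRF was higher by 0.92. Without BTC, MYL9 differed by -0.82 (adjusted p = 0.165) and CNN1 by -0.91 (adjusted p = 0.14), so the values of both lay on the same side in each comparison. The counts rested on few libraries: leaving out 1 experiment at a time gave 1 to 3 calls without BTC and 1 to 7 with BTC, and without the 3 shallowest libraries the calls were TAGLN and CALD1 without BTC and CALD1 with BTC.

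DHA against oleic acid gave 5 lower genes without BTC (TAGLN, CALD1, MYL9, CNN1 and MYLK), where 3.27% of all genes were called and 2.38% were lower. CALD1 was at -1.35 there and MYLK at -0.88. With BTC it gave 3 lower genes, TAGLN at -1.49, ACTA2 at -1.27 and CALD1 at -0.98, where 1.72% of all genes were called and 1.12% were lower. TAGLN and CALD1 were called in all 4 of these comparisons of DHA within a BTC state, which share libraries. No member was called for oleic acid against vehicle, without or with BTC, where 0% of all genes were called and the numbers of genes at an unadjusted p under 0.05 from limma were 468 and 1044. EdgeR and DESeq2 called 0 genes in both.

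BTC itself changed none of the 10 genes past the threshold, with TAGLN the closest. Averaged over pretreatments, all 10 differences were below 0, with a median of -0.12 beside -0.02 for all genes, 0 of 10 were called by limma, and 0% of all genes were called. At an unadjusted p under 0.05 there were 609 genes, among them 2 members, TAGLN and SRF. EdgeR and DESeq2 called 0 of the 10 too, and with each of them 9 of the 10 differences were below 0. TAGLN read lower with BTC in 15 of 15 pairs of libraries from the same experiment and pretreatment. It fell by 0.50 ± 0.15 (SE) on the log2 scale (p = 0.00203, adjusted p = 0.994 from limma, n = 15 a side from 5 experiments). Pairs of the same experiment are not independent replicates. By experiment the differences ran from -0.25 to -0.74. The pair nearest to no difference was OLA 1, at 122 CPM without and 121 CPM with BTC, and in experiment 1 after vehicle TAGLN was at 177 CPM without and 78.1 CPM with BTC. ACTA2 was lower in 11 of 15 pairs, with a difference of -0.33 and an interval from -0.72 to 0.06.

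SRF stood apart in 1 group, Veh+BTC. Its 5 values there were 265, 204, 250.3, 337 and 110 CPM in experiments 1 to 5. In Veh+Veh they were 451, 374, 553, 323 and 307 CPM, so 4 of 5 experiments were lower with BTC and experiment 4 was higher. With oleic acid, OLA+BTC read 511, 346, 491, 355 and 218 CPM beside 408, 414, 513, 310.4 and 309 CPM in OLA+Veh. With DHA, DHA+BTC read 644, 209, 798, 457 and 253 CPM beside 794, 248, 547, 357 and 309 CPM in DHA+Veh. The BTC difference of SRF was -0.84 after vehicle (interval -1.29 to -0.39, adjusted p = 0.445), -0.06 after oleic acid (adjusted p = 1) and 0.01 after DHA (adjusted p = 1), all from limma.

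The test of the difference itself did not call SRF. The DHA difference of SRF was 0.07 without BTC (interval -0.38 to 0.52) and 0.92 with BTC (interval 0.47 to 1.37, adjusted p = 0.0149), and their interaction was 0.85 (interval 0.22 to 1.49, adjusted p = 0.983). For oleic acid the interaction of SRF was 0.78 (interval 0.14 to 1.41, adjusted p = 0.584). Both interactions contain the same 5 Veh+Veh and 5 Veh+BTC libraries. Across the 10 genes, 0 were called for either interaction and 0 for BTC after vehicle, after oleic acid or after DHA by limma, where 0% of all genes were called in each. At an unadjusted p under 0.05 there were 527 genes for the DHA interaction, 1279 for the oleic acid interaction, and 1539, 299 and 629 for BTC after vehicle, oleic acid and DHA. EdgeR called 0 genes in these 5 comparisons and DESeq2 at most 1 gene, never a member. With limma SRF was the 1 member with an unadjusted p under 0.05 for either interaction. With edgeR and with DESeq2 there were 3 for the oleic acid interaction, CALD1, MYL9 and SRF. For ACTA2 the DHA interaction was 0.06 with an interval from -0.90 to 1.02, so a 2-fold change in either direction lay near its limits.

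**Figure D3:**
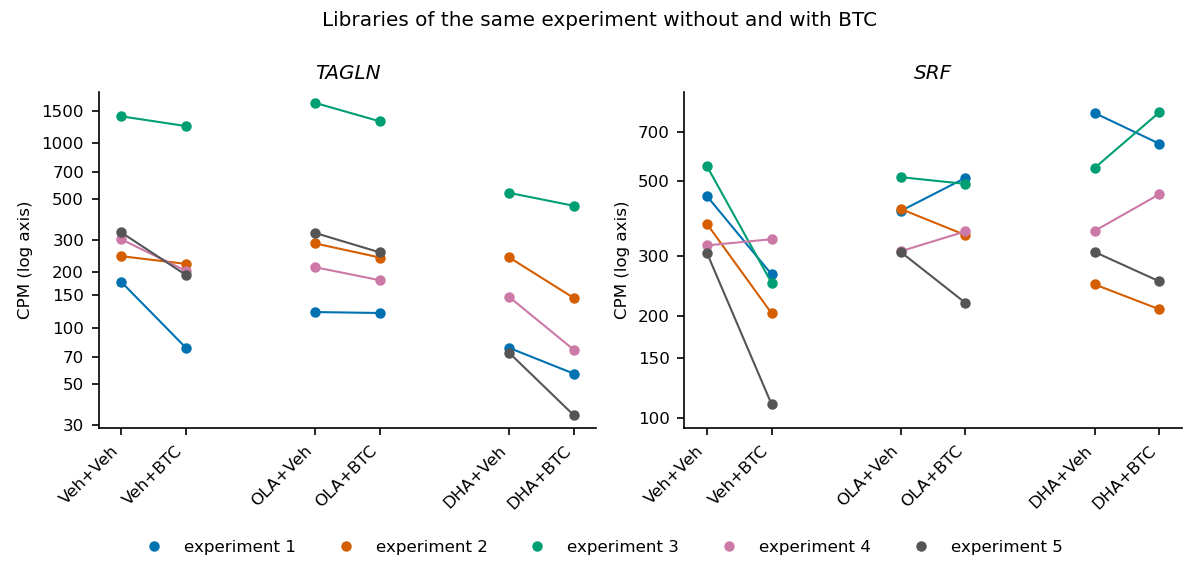
CPM of TAGLN and SRF (log axes) in each pair of libraries without and with BTC, by pretreatment, with 1 line per experiment. All 15 TAGLN lines slope down, and the SRF lines slope down in 4 of 5 experiments after vehicle, with mixed slopes after the fatty acids.

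The experiment a library came from carried more of the variance of several genes than any treatment. It held 81.6% of the sum of squares of TPM1 on the log2(CPM + 1) scale, 78.9% of CALD1, 71.2% of MYLK and 70.1% of TAGLN, while the 6 groups held 10.4%, 17.7%, 16.8% and 22.6%. Over all genes tested the medians were 47.7% for experiments and 11.3% for groups. ACTA2 and CNN1 were the 2 members for which the groups held more than the experiments, with 42.3% against 29.7% for ACTA2 and 39.5% against 29.1% for CNN1. The labels give the experiment as a cohort and do not say what differed between cohorts.

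Members did not share 1 order of experiments. In the 4 libraries of an experiment without DHA, TAGLN averaged 1401 CPM in experiment 3 and 124.5 CPM in experiment 1, an 11.3-fold range. ACTA2, MYL9, TPM2 and SRF were also highest in experiment 3, with ranges of 3.53-fold for ACTA2 and 4.15-fold for MYL9. CALD1, TPM1 and MYLK were highest in experiment 2 and lowest in experiment 4, with CALD1 at 549 and 74.3 CPM, a 7.39-fold range. ACTN1 varied least, by 1.41-fold. The 11.3-fold range of TAGLN between experiments was larger than its 2.32-fold fall with DHA.

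**Figure D4:**
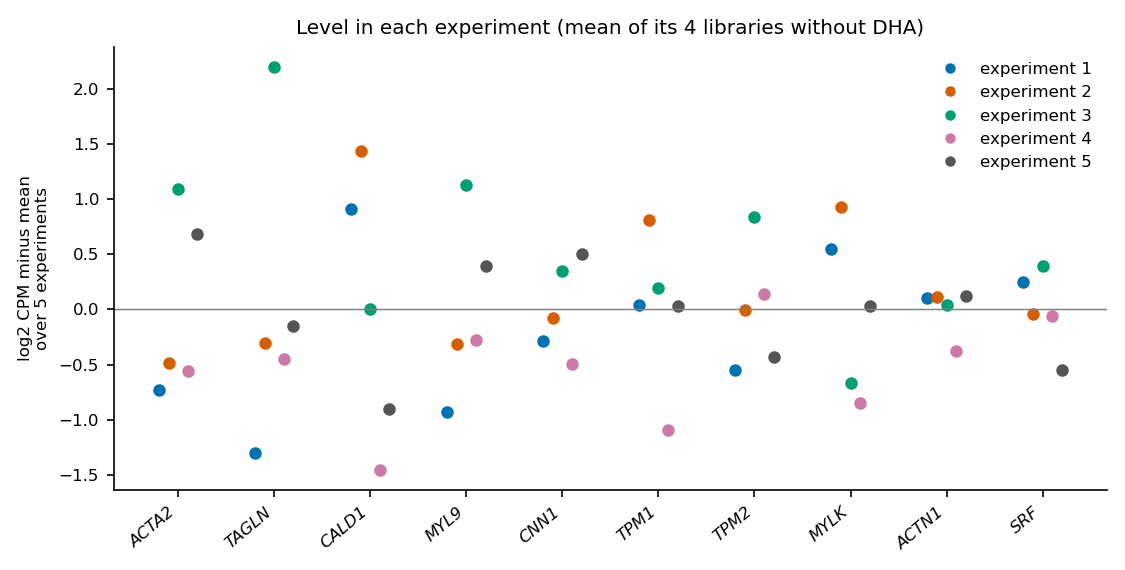
Level of each gene in each experiment (mean CPM of its 4 libraries without DHA) as log2 difference from the gene's mean over the 5 experiments. Experiment 3 is highest for TAGLN, ACTA2, MYL9, TPM2 and SRF, and experiment 2 is highest for CALD1, TPM1 and MYLK.

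With each experiment's mean removed, 8 of the members moved together over the 30 libraries and SRF did not. Pearson's r with ACTA2 was 0.86 for TAGLN, 0.78 for TPM2, 0.75 for CALD1, 0.73 for MYL9, 0.71 for MYLK, 0.62 for TPM1, 0.56 for CNN1, 0.37 for ACTN1 and -0.16 for SRF. Of the 45 pairs of members 34 were positive, with a median of 0.61. The median of all genes with ACTA2 alone was 0.15, which is a different measure, and no background over pairs of genes was computed. These values describe libraries that share groups, so the fall with DHA enters each of them. With the group means removed as well, 32 of 45 pairs were positive and the median was 0.20. The highest of these was 0.80 between TAGLN and TPM2, and the lowest was -0.70 between MYL9 and SRF. Outside the 10, the genes most like ACTA2 over the 30 libraries were WFS1 (r = 0.90), ATOH8 (0.90), JADE1 (0.90), CCN5 (0.88) and CPA4 (0.88), each above the r of TAGLN. The DHA difference was left in when these 5 were chosen, so their own differences with DHA, from -0.70 for JADE1 to -2.16 for CPA4, are a description and no test.

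**Figure D5:**
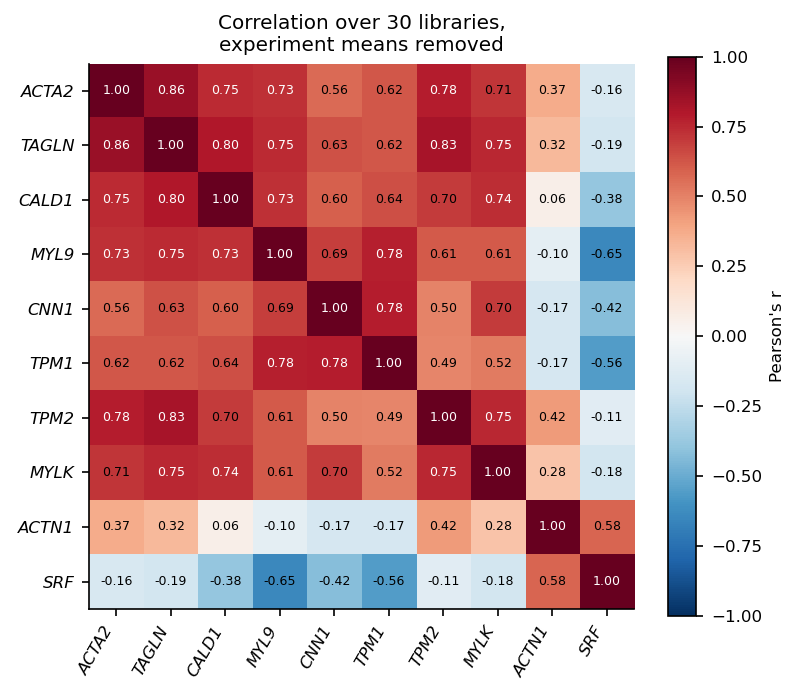
Pearson's r between the 10 genes over 30 libraries on the log2(CPM + 1) scale after removal of each experiment's mean. The block of 8 genes from ACTA2 to MYLK is positive throughout, and SRF is negative with all 8 and positive with ACTN1 at 0.58.

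Genes of the same machinery outside the 10 also fell with DHA in part. Of 14 tested genes of smooth muscle differentiation, 4 fell and 0 rose, where 8.38% of all genes were called lower and 2.33% higher, and their median was -0.36 beside -0.13 for all genes. ACTG2, the enteric smooth muscle actin, went from 23.5 ± 9.83 CPM after vehicle to 9.88 ± 7.36 CPM after DHA (SD, n = 10 each), lower in 5 of 5 experiments, by 1.62 on the log2 scale (limma, adjusted p = 0.00445). FHL2, a LIM-domain protein, fell from 182 ± 35.0 to 126 ± 23.8 CPM (SD, n = 10 each), by 0.52 (limma, adjusted p = 0.00459). CSRP1 fell by 0.62. LMOD1, which nucleates actin filaments, fell by 1.12, from a low level of 2.95 ± 2.14 CPM to 0.715 ± 0.591 CPM (SD, n = 10 each). Its level after DHA was under the 1 CPM used for testing, so this call, 1 of the 4, ended near the counting floor.

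Of 14 non-muscle and other paralogs, 5 fell and 0 rose (median -0.32), again where 8.38% of all genes were called lower. MYH9 and MYH10, the heavy chains of non-muscle myosin, fell by 0.40 and 0.89 (adjusted p = 0.0241 and 0.00343), and MYL6, the essential light chain, fell by 0.43 (adjusted p = 0.0241). ACTC1, the cardiac actin, fell by 0.81, from 1.55 ± 0.81 CPM after vehicle to 0.439 ± 0.448 CPM after DHA (SD), where the scale understates a change. The level of ACTC1 after DHA was under the 1 CPM used for testing. This call, 1 of the 5, therefore ended near the counting floor. Of 12 genes of focal adhesions and actin crosslinking, 5 fell and 0 rose (median -0.33), against the same 8.38%: FLNC fell by 1.08 (adjusted p = 0.00035), FLNA by 0.61 and PALLD by 0.61, and LIMA1 was called lower at an adjusted p of 0.0211. The crosslinker ACTN1 differed by -0.02 in the same comparison.

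The genes that control myosin phosphorylation gave 3 falls and 0 rises of 14 against vehicle (median -0.35), and 7 falls and 0 rises against oleic acid (median -0.42 beside -0.17 for all genes). Of all genes, 8.38% were called lower against vehicle and 8.96% against oleic acid. RHOA, a small GTPase, fell from 964 ± 209 to 736 ± 124 CPM (SD, n = 10 each), by 0.38 (limma, adjusted p = 0.0312). PPP1R12B, a targeting subunit of myosin phosphatase, fell by 1.24 (adjusted p = 0.00151).

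Among the partners and rapid targets of SRF, DHA changed 1 gene past the threshold. Of 6 cofactors (MRTFA, MRTFB, MYOCD, ELK1, ELK3 and ELK4) 0 were called by limma in either direction against vehicle (median -0.04), with 0 at an unadjusted p under 0.05, and edgeR and DESeq2 called 0 of them. MRTFA, the actin-sensing cofactor, was at 60.9 ± 19.6 CPM after vehicle and 57.9 ± 10.5 CPM after DHA (SD, n = 10 each), a difference of -0.03 (limma, adjusted p = 0.921), and MYOCD was near the floor at 1.03 ± 1.09 CPM after vehicle. Of 8 tested immediate-early genes 1 rose and 0 fell (median 0.25), where 2.33% of all genes were called higher and 8.38% lower, so counts of 0 of 6 and 1 of 8 are near the background. That gene was JUNB, a subunit of AP-1, which went from 80.9 ± 39.3 to 129 ± 42.2 CPM (SD, n = 10 each), by 0.75 (limma, adjusted p = 0.00488), higher in 5 of 5 experiments. IER2 differed by 0.29 (adjusted p = 0.113). None of the genes in these 6 lists was called for BTC averaged over pretreatments or for oleic acid against vehicle.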

How the data were processed

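The deposited table held CPM values per gene, which the authors had scaled to 1000000 per library. The submitters' processing notes name STAR 2.5.3a and HTSeq 0.6.0. The genome build and annotation are not given in the sources used here. Ensembl identifiers were matched to symbols (61444 of 61597). Values were whole multiples of 1 read for 100% of entries within 0.01 read, so whole reads were recovered. Totals limit precision: 3 reads equalled 0.316 to 2.41 CPM, a limit for counting error only, because PCR copies were not told from separate molecules.

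Comparisons used limma 3.58.1 (trend, two-sided, R 4.3.3) on log2(CPM + 1) for the 15137 genes that reached 1 CPM in 5 or more libraries, with group and experiment as terms over all 30 libraries and Benjamini-Hochberg adjustment at 0.05. Differences on this scale understate changes of low genes. Experiments pair the libraries: the labels name a cohort holding 1 library of each group, and deviations from group means correlated in all 75 same-experiment pairs (lowest 0.119, median 0.507). The labels do not say that experiments were separate passages, and p-values reflect only the spread of these cultures. EdgeR 4.0.16 and DESeq2 1.42.0 on recovered reads, other scalings, pseudocounts, filters, thinning and left-out libraries were alternatives. Scripts were tested on simulated data.

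Named genes were the 10 members, up to 4 genes of each of 6 lists with the smallest p in the comparison described, and the 5 genes most correlated with ACTA2. The members and lists were chosen with earlier results of these data known. Marker lists were used only to describe the libraries. 1 further result is not reported here.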

Additional observations from a re-analysis of the deposited data

Results flagged for a closer look

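2 of 60 sets of 5 libraries (10 genes in 6 groups) held a library far from the other 4 on the log2 scale, where chance gives about 1 in 20 sets. CNN1 in OLA+Veh 3 was the highest of its group at 131.64 CPM, with the other 4 libraries between 56.3 and 69.3 CPM. ACTN1 in OLA+Veh 4 was the lowest of its group at 1181.0 CPM, with the other 4 between 1590.5 and 1772 CPM. Experiment 4 was the lowest for ACTN1 in every other group too, so this value went with the level of its experiment.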

How the results depend on the processing

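The fit without the experiment term (no replicate block) called 0 of the 10 genes in every comparison of DHA, and it called 104 of all genes for DHA against vehicle and 68 for DHA against oleic acid, beside 1621 and 1719 with the term; the larger residual spread is part of how that fit is built. Members called against vehicle averaged over BTC numbered 6 without the 3 shallowest libraries, 6 on experiment means, 7 with edgeR, 8 with DESeq2 and 9 after thinning to equal depth, beside 9, and 6 to 9 with 1 library or experiment left out; against oleic acid they numbered 6 to 8 in these settings, with 7 to 8 when 1 library or experiment was left out. The counts over all genes were 575 and 537 without the 3 shallowest libraries, 950 and 965 with edgeR, 784 and 771 on experiment means, and 1001 for DHA against vehicle with only those groups fitted; without experiment 3, 4 or 5 they were 966, 763 and 787 against vehicle and 1118, 601 and 665 against oleic acid.

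Within a BTC state the member counts moved more. With 1 experiment left out they ran from 1 to 3 for DHA against vehicle without BTC (1 without experiment 3, 4 or 5), 1 to 7 with BTC (1 without experiment 3, 2 without experiment 5), 1 to 5 for DHA against oleic acid without BTC (1 without experiment 3 or 4) and 1 to 5 with BTC (1 without experiment 3 or 4). Without the 3 shallowest libraries 1 member was called for DHA against vehicle with BTC and 1 for DHA against oleic acid with BTC. For DHA against oleic acid without BTC, median-of-ratios scaling gave 2 and edgeR gave 2. The cause was not tested. Counts for oleic acid, BTC and the interactions were 0 of 10 in every setting run. No called member changed sign in the settings run. Depth limits ACTA2 most, at 18 reads in its lowest library.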
